A study of Mus musculus with 59 samples.

Results

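Knockdown of Acly in untreated AML12 hepatocytes was described with 6 of the 59 RNA-seq libraries of the series. They were every untreated library of the AML12 table, 3 with a control siRNA (siC Ut, library numbers 1, 2 and 13) and 3 with siRNA against Acly (siAcly Ut, library numbers 14, 15 and 84), and the other 18 AML12 libraries served for comparison. AML12 is an established line of mouse hepatocytes from a mouse transgenic for human TGF-alpha, and all groups were grown with serum, an insulin, transferrin and selenium supplement and dexamethasone. The siRNA was given 4 h after seeding. Untreated cells received nothing further, while treated cells received hydroxycitrate (HC, 1 mM), SB-204990 (SB, 10 µM) or bempedoic acid (Bemp, 30 µM) from 24 h after the siRNA, for 16 h. A second siRNA and a rescue are not part of the data analysed here. The sources used here do not state how many cultures stand behind a group, so the p-values measure the spread between these libraries, which may be technical.

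ATP-citrate lyase (ACLY) is the cytosolic enzyme that splits citrate exported from mitochondria into acetyl-CoA and oxaloacetate. Its acetyl-CoA feeds the synthesis of fatty acids and cholesterol and the acetylation of histones and other proteins, and liver is a main site of this route. Cells can also make cytosolic acetyl-CoA from acetate with the synthetase ACSS2.

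The deposited values are gene counts that the authors normalized by the median of ratios, and the estimated depth of the 6 libraries was 12.2 to 15.5 M reads. Among defining hepatocyte markers, Alb was at 573 to 11853, Ttr at 2241 to 9346 and Hnf4a at 4527 to 5328 in the 6 libraries, whereas Arg1 was at 0 to 26.8 and Tat at 1.06 to 8.22. Genes that also mark bile duct cells were present (Krt19 at 5443 to 23994, Sox9 at 759 to 1503), with Epcam at 0 to 4.46. Summed markers of hepatocytes were at 66761 to 105101 in siC and 40993 to 77777 in siAcly libraries, those of bile duct cells at 24099 to 31384 and 19529 to 41313, those of macrophages and leukocytes (Cd14 above all, Adgre1 and Clec4f at 0) at 2972 to 4350.0 and 2476 to 4480.1, and those of endothelial cells (Kdr and Lyve1 at 0) at 15.1 to 24.5 and 23.4 to 58.9. Only the list of stellate cells and fibroblasts did not overlap among these 5 lists, at 8748 to 11429.8 in siC and 12623 to 18259 in siAcly libraries, nearly all of it Vim, with Lrat, Lum, Col3a1 and Thy1 at 0. Its part in the results was not tested, and in such bulk samples fewer cells of a type and less RNA per cell cannot be told apart.

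Several libraries stood apart. Library siAcly Ut 15 had 14827 genes above 0 (13790 to 14172 in the other 5 untreated libraries). Library siC Ut 13 had 917 for Cyp1a1, a dioxin-inducible cytochrome P450, where the 5 Bemp libraries other than siC Bemp 11 had 678 to 1255 and the 17 other libraries with no Bemp had 94.8 to 495. The library labelled siC Bemp 11 had 404 for Acly, inside the range of the 12 siAcly libraries (215 to 599), and 236 for Cyp1a1. The labels of these 2 libraries are therefore in doubt. All labels were kept, but siC Ut 13 is 1 of the 3 siC libraries of the untreated comparison, so what the untreated fold changes compare depends on that label. The 24 libraries also fell into 3 sets that cut across the siRNAs. Set C holds the 7 libraries numbered 81 to 87, and sets A (8 libraries) and B (9 libraries) are the others split by the sign of the second principal component. The siC Ut libraries lay in set A (1) and set B (2 and 13) and the siAcly Ut libraries in set B (14 and 15) and set C (84), so that only set B holds untreated libraries of both siRNAs. Among the treated groups, siC HC, siC SB, siAcly HC, siAcly SB and siAcly Bemp had a library in each of the 3 sets. Of siC Bemp, libraries 10 and 11 lay in set A and 83 in set C, so siC Bemp, like the untreated groups, lacks a set. The membership of siAcly Ut 15 is weak, with a coordinate of −3.62 where the other 8 libraries of set B had −39.6 to −26.1.

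Acly lies on chromosome 11 of GRCm38 (chr11:100476353-100528000, minus strand). Its normalized values were 2750.4, 3804 and 3263 in siC and 376, 215 and 309 in siAcly, in the library order given above (1, 2 and 13, then 14, 15 and 84) that is kept for every gene. The 3 siAcly libraries lay far below the 3 siC libraries, and siAcly Ut 15 had the lowest value of the 24. The log2 fold change of Acly was −3.47 (standard error 0.48, adjusted p = 0.00650 from limma). Without siC Bemp 11, which enters only the estimate of the spread, the standard error was 0.24 and the adjusted p from limma 1.18e-07.

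Beyond Acly, 22 genes passed at an adjusted p under 0.05 (limma, adjusted over the 12296 genes tested). Of the 23 genes, which are 0.187% of those tested, 17 rose (0.138%) and 6 fell (0.0488%), and the median log2 fold change of all genes tested was −0.03. An unadjusted p under 0.05 was seen for 2332 genes, 1302 higher and 1030 lower in siAcly cells. At the threshold of the study (unadjusted p of 0.05 or lower with a log2 fold change of 1 or more in size) 510 genes passed (4.15%), 17 of the 23 among them. The genes that rose include inhibitors of the cell cycle, an AP-1 subunit, regulators of growth factor and stress kinase signalling and a synuclein, and those that fell include transcription factors, a kinase, a vesicle protein and a lipid transporter. Among the 17 is 1 long noncoding RNA with no name of its own, which was only counted. The adjusted p of the 23 genes was 0.00650 to 0.0481 and is printed below where it was under the highest of these. For 23 of the 23 the siAcly and siC libraries did not overlap, as for 12.6% of all genes with siAcly above siC and 11.2% with siAcly below it.

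Growth inhibitors were among the genes that rose. Cdkn1a (chr17:29090976-29100727), which encodes p21, an inhibitor of cyclin-dependent kinases and a classic p53 target, had 2074, 1967 and 1802 in siC and 3358, 11695 and 5051 in siAcly (log2 fold change 1.58, standard error 0.32). Its siAcly libraries differed widely among themselves, and without siAcly Ut 15 the log2 fold change was 1.08. Cdkn2b (chr4:89306299-89311039), the inhibitor p15, had 153, 103 and 115 in siC and 266, 738 and 242 in siAcly (log2 fold change 1.56, standard error 0.31). Gadd45g (chr13:51846678-51848468), a growth arrest and DNA damage inducible protein, had 376, 323 and 322 in siC and 656, 668 and 829 in siAcly (log2 fold change 1.07, standard error 0.22). Unlike Cdkn1a and Cdkn2b, it was not highest in siAcly Ut 15. The promoters of these genes and of Junb, described next, are shown because the genes rose together and because the windows show which classic stress and growth elements lie near a start of each. Each window runs from 250 bases before to 50 bases after a start in RefSeq (GRCm38.p6), on the strand of the gene, with matches to the motifs searched in capitals. Where a gene has several starts, only the window of the first one listed is shown. Cdkn1a is such a gene, since its match to the GC box (GGGCGG) lies in a window that is not shown.
Cdkn1a, chr17:29090729-29091028, plus strand: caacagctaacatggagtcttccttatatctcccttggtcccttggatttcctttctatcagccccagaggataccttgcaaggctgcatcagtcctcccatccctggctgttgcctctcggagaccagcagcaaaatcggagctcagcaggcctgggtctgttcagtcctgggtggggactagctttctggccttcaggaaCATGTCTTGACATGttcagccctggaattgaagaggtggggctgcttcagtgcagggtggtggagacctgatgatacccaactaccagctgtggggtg
Cdkn2b, chr4:89310983-89311282, minus strand: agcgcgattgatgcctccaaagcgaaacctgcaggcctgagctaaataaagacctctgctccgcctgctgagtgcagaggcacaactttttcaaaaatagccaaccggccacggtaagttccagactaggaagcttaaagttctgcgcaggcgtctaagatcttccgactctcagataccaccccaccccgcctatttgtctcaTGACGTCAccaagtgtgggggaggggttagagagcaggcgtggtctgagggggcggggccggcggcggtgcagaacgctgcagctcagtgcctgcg
Gadd45g, chr13:51846425-51846724, plus strand: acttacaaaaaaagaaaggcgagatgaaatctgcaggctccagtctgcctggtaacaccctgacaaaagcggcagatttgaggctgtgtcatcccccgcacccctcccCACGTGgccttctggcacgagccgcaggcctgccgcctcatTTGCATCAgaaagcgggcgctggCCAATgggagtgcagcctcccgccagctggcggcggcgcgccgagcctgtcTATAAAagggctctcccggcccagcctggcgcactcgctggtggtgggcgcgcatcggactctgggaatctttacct
Junb, chr8:84978699-84978998, minus strand: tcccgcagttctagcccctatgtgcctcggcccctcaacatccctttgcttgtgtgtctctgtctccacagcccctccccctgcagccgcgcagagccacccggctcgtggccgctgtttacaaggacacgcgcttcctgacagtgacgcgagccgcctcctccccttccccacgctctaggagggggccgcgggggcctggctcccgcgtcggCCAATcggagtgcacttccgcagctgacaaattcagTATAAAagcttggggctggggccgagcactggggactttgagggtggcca
The capitals mark, on either strand, CATGNNNNNNCATG (a pair of p53 core sequences) in Cdkn1a, TGACGTCA (the cyclic AMP response element) in Cdkn2b, CACGTG (E-box), TGATGNAA (C/EBP-ATF element), CCAAT and TATAAA in Gadd45g, and CCAAT and TATAAA in Junb. Of 32851 RefSeq windows of this length, 0.712% hold the p53 pair, 1.79% the cyclic AMP element, 3.97% the C/EBP-ATF element, 7.15% the E-box, 13.6% TATAAA and 37.4% CCAAT. Windows were at hand for 19 of the 23 genes that passed, 31 in all, since some genes have several starts. Counted by window like the shares above, the p53 pair was in 1 (3.23%), the cyclic AMP element in 2 (6.45%) of Cdkn2b and Maff, the C/EBP-ATF element in 1 (3.23%), the E-box in 2 (6.45%) of Gadd45g and Maff, TATAAA in 7 (22.6%) and CCAAT in 10 (32.3%). The AP-1 element TGANTCA, held by 7.81% of all windows, was in 4 (12.9%) of Ifitm10, Tcf12 and Tinagl1, and the GC box GGGCGG, which is not marked, was in 18 (58.1%), against 35.7% of all windows. The marked motifs do not overlap each other in the windows shown. The TATAAA of Junb lies within the 50 bases after the start, and the other marked motifs lie before it. The genes and motifs were chosen with values known, and a match describes letters, not binding.

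Transcription factors and signalling proteins rose as well. Junb, an AP-1 subunit, had 2939, 2914 and 2960.2 in siC and 5369, 6494 and 4977 in siAcly (log2 fold change 0.92, standard error 0.16, adjusted p = 0.0287 from limma). Maff, a small Maf factor, had 654, 689 and 623 in siC and 1020.4, 1714 and 1248 in siAcly (log2 fold change 0.99). The siC libraries were close to each other for both, and the siAcly libraries lay above them. Dusp10, a phosphatase that switches off the stress kinases p38 and JNK, had 231, 215 and 178 in siC and 423, 547 and 463 in siAcly (log2 fold change 1.20, standard error 0.19, adjusted p = 0.0163 from limma). Hbegf, a ligand of the EGF receptor, had 258, 245 and 214 in siC and 393, 866 and 435 in siAcly (log2 fold change 1.15). Its highest value was that of siAcly Ut 15. Ptpn6, the tyrosine phosphatase SHP-1, had 283, 294 and 286 in siC and 448, 514 and 467 in siAcly, the smallest of the 17 rises (log2 fold change 0.72). Tpd52l1, of the tumour protein D52 family, had 193, 165 and 168 in siC and 278, 598 and 378 in siAcly (log2 fold change 1.18).

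The largest rise was that of Sncg (chr14:34370274-34374789), which encodes gamma-synuclein. It had 34.4, 29.8 and 38.3 in siC and 80.3, 434 and 152 in siAcly (log2 fold change 2.33, standard error 0.45), and without siAcly Ut 15 its log2 fold change was 1.67. Pdlim2, a PDZ and LIM domain protein, had the smallest adjusted p after Acly (0.0137 from limma), with 172, 173 and 167 in siC and 415, 411 and 502 in siAcly (log2 fold change 1.37, standard error 0.21). Its values were close within each group and well apart between them. Ifitm10, of the interferon-induced transmembrane family, had 43.2, 34.4 and 35.7 in siC and 99.5, 113 and 132 in siAcly (log2 fold change 1.57). R3hdml had 141, 192 and 133 in siC and 382, 476 and 343 in siAcly (log2 fold change 1.37). Tinagl1, a secreted matrix protein, had 2945, 3059 and 3246 in siC and 4933, 8960.2 and 7149 in siAcly (log2 fold change 1.14). Each of these 3 genes was higher in every siAcly library than in any siC library. Kdelr3, a receptor that returns chaperones from the Golgi to the endoplasmic reticulum, had 217, 267 and 237 in siC and 392, 483 and 394 in siAcly (log2 fold change 0.81). Tprgl had 384, 367 and 403 in siC and 531, 741 and 675 in siAcly (log2 fold change 0.74).

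After Acly, the largest fall was that of Abca6 (chr11:110176820-110251776), an ABC transporter of the lipid-handling subfamily A. It had 176, 115 and 183 in siC and 62.5, 26.2 and 45.3 in siAcly (log2 fold change −1.86, standard error 0.34, adjusted p = 0.0417 from limma). Zbtb18, a zinc finger repressor, had 589, 571 and 618 in siC and 329.9, 235 and 235 in siAcly (log2 fold change −1.17, standard error 0.24). Both genes lay lower in every siAcly library than in any siC library. Tcf12, an E protein that pairs with other helix-loop-helix factors, had 940.1, 839 and 836 in siC and 514, 422 and 464 in siAcly (log2 fold change −0.90). Tnik, a kinase of the Wnt pathway, had 121, 133 and 153 in siC and 67.4, 61.6 and 65.6 in siAcly (log2 fold change −1.05, adjusted p = 0.0219 from limma). Lrba, a BEACH domain protein of vesicle traffic, had 581, 597 and 612 in siC and 349.9, 221 and 339 in siAcly (log2 fold change −1.002).

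**Figure D1:**
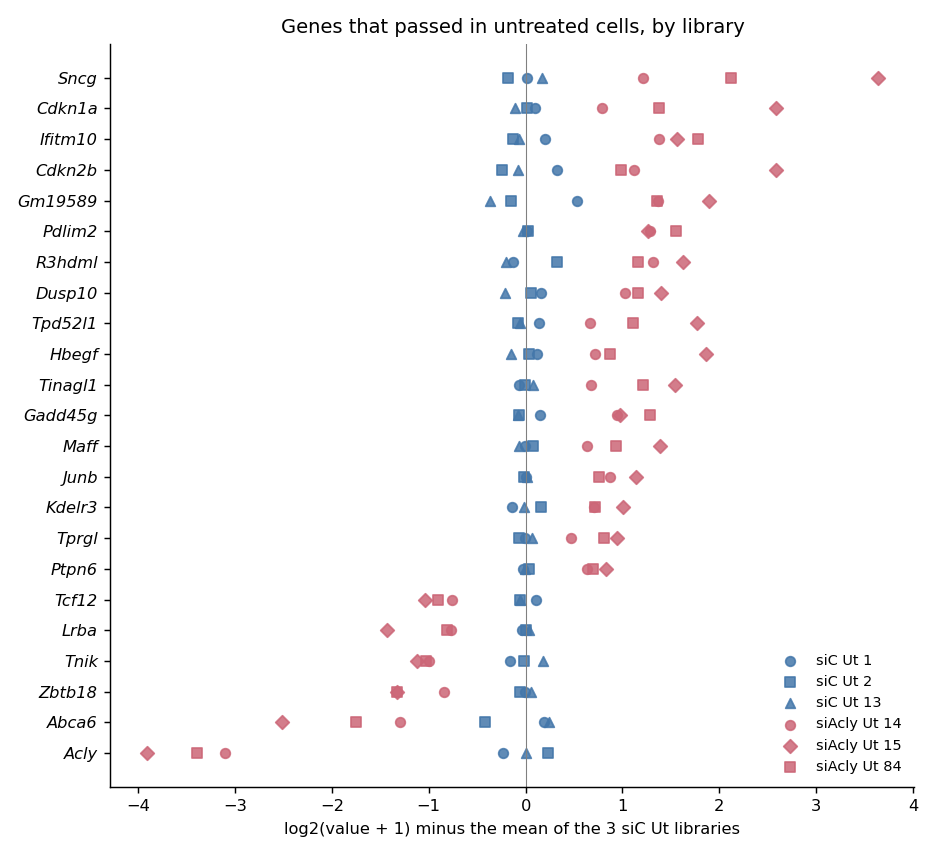
Deviation of the 23 genes that passed in each of the 6 untreated libraries, on the x axis as log2(value + 1) minus the mean of the 3 siC Ut libraries, with 1 point per library (blue siC, red siAcly). No red point overlaps the blue points of its gene, and library siAcly Ut 15 lies farthest from the siC mean for 19 of the 23 genes.

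The number of calls changed when single libraries were left out. In siAcly Ut 15 the deviation from the siC mean was the largest of the 3 siAcly libraries for 19 of the 23 genes, in siAcly Ut 84 for 4 and in siAcly Ut 14 for 0. The share of all genes for which siAcly Ut 15 deviated most was not counted. Without siAcly Ut 15, 0 genes passed (smallest adjusted p = 0.0563 from limma, 1299 genes with an unadjusted p under 0.05), and without siC Ut 13 also 0 (smallest adjusted p = 0.0598 from limma, 1470 genes with an unadjusted p under 0.05). Without siC Ut 2, 0 passed (2029 with an unadjusted p under 0.05), 1 gene passed without siAcly Ut 84, 4 passed without siC Ut 1 and 300 without siAcly Ut 14. No log2 fold change of the 23 genes changed sign under these exclusions. Each exclusion also makes a group smaller, and whether that or the library itself changed the number of calls was not tested. With the 3 sets as a factor, an alternative added after the data were seen, 23 of the 23 genes passed, among 1338 genes in all (10.9% of those tested). That fit assumes that a set shifts a gene alike in every group. Since sets A and B were drawn from the same values, its p-values are likely too small, by an amount that was not measured. Without siAcly Ut 15 it called 239 genes (1.95%), 22 of the 23 among them.

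The 18 treated libraries share no library with the untreated comparison, but both contrasts took their spread from the same fit over all 8 groups. A gene with little spread in that fit passes more easily in both, so passing in both is not independent. All 23 genes had the same direction there (mean of the knockdown effects under HC, SB and Bemp), and 10 of them passed at an adjusted p under 0.05, where 38 of the 12296 genes did (0.309%). The 10 were Acly, Dusp10, Gadd45g, Kdelr3, Ptpn6, R3hdml, Sncg, Tcf12, Tprgl and Zbtb18. For 23 of the 23 the fold change was smaller in treated than in untreated cells, as genes chosen for passing in untreated cells would tend to be by that choice alone. By limma 0 genes passed the test of that difference (smallest adjusted p = 0.890), and 388 genes had an unadjusted p under 0.05 for it. By agent, 23 of the 23 genes kept their direction under HC, 21 under SB and 23 under Bemp, and the exceptions under SB were Lrba (log2 fold change 0.07) and Tnik (log2 fold change 0.04). The library labelled siC Bemp 11 is among the 9 siC libraries. Without it, 80 genes passed in treated cells (0.651%), 13 of the 23 among them. With the sets as a factor, 832 genes passed in treated cells (6.77%, with 3.57% rising and 3.2% falling), 21 of the 23 among them.

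Single genes show how the treated libraries were spread. Acly was at 404 to 3859.6 (median 2947) in the 9 treated siC libraries, its lowest value being that of siC Bemp 11, and at 271 to 599 (median 364) in the 9 treated siAcly libraries (log2 fold change −2.69, or −3.01 without siC Bemp 11). Zbtb18 was at 410.0 to 678 (median 527) in treated siC and 212 to 394 (median 264) in treated siAcly libraries (log2 fold change −0.83, standard error 0.14, adjusted p = 0.0154 from limma). Sncg was at 27.6 to 80.7 (median 43.6) and 71.04 to 162 (median 106) (log2 fold change 1.25, standard error 0.26). Of the 23 genes, 3 had 9 treated siAcly libraries entirely beyond the 9 siC libraries, Ptpn6, Tprgl and Zbtb18, a pattern shown by 0.114% of all genes tested. Cdkn1a was at 1837 to 3610.0 (median 2274) in treated siC and 3034 to 4888 (median 4213) in treated siAcly libraries, and the highest siC value was that of siC Bemp 11. Its log2 fold change in treated cells was 0.68 (standard error 0.18, adjusted p = 0.138 from limma), against 1.58 in untreated cells. Abca6 was at 83.8 to 171 (median 129) in treated siC and 68.2 to 153 (median 86.7) in treated siAcly libraries (log2 fold change −0.44, adjusted p = 0.425 from limma), which overlap widely.

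**Figure D2:**
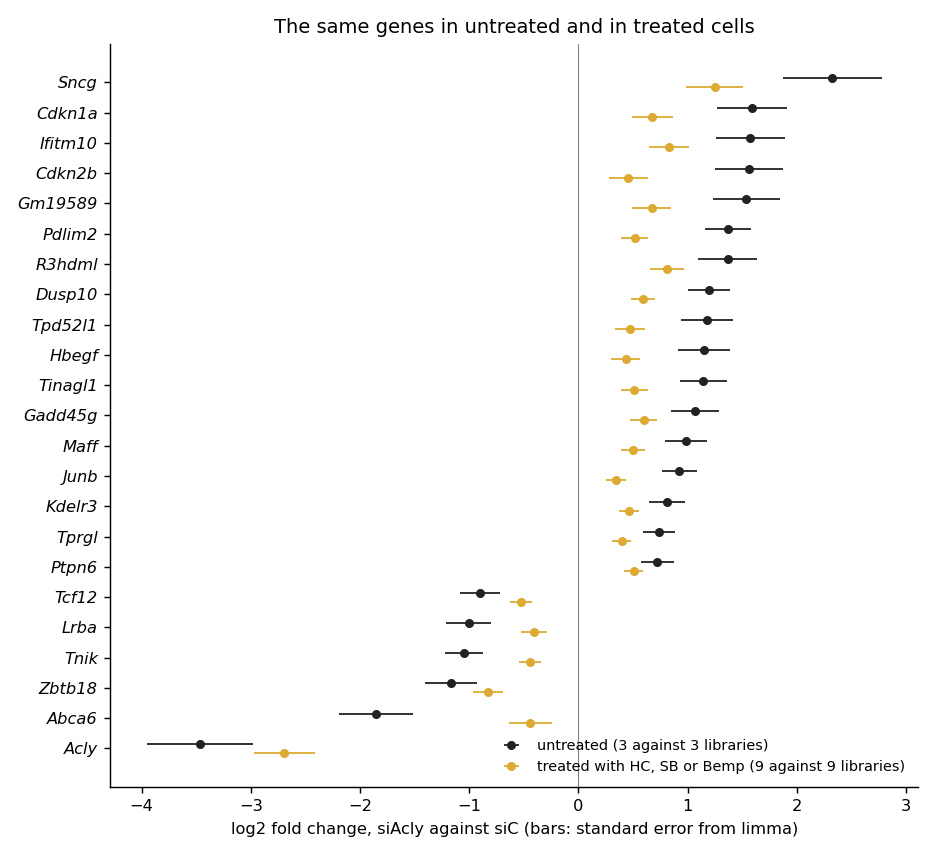
Log2 fold change of siAcly against siC for the 23 genes that passed, in untreated cells (black, 3 against 3 libraries) and as the mean of HC, SB and Bemp (yellow, 9 against 9 libraries), with the standard error of limma as bars. Each yellow point lies on the same side of 0 as the black point of its gene and nearer to 0, and the genes were chosen for passing in untreated cells.

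Lists of genes of general knowledge, chosen with earlier results of these data known, were followed next. The shares set beside those of all genes therefore describe the lists and are not tests. Of 30 genes of acetyl-CoA supply and citrate transport, 27 were tested and none passed (median log2 fold change −0.12, against −0.03 over all genes). Pdk4, the kinase that shuts off pyruvate dehydrogenase, had 132, 104.2 and 138 in siC and 66.6, 53.3 and 76.7 in siAcly (log2 fold change −0.92, adjusted p = 0.159 from limma). Slc25a1, the mitochondrial citrate carrier, had 933, 1425 and 1253 in siC and 1789, 1509 and 1473 in siAcly (log2 fold change 0.42, adjusted p = 0.374 from limma), and Idh1, the cytosolic isocitrate dehydrogenase, a log2 fold change of −0.73 (adjusted p = 0.311 from limma). The groups of these genes did not overlap, as for 3.70% of the list with higher and 7.41% with lower values in siAcly, under the 12.6% and 11.2% of all genes. Acss2, the acetate route to acetyl-CoA, was looked at after its values were seen and had 162, 238 and 256 in siC and 252, 79.2 and 118 in siAcly, which overlap.

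Of 27 genes of fatty acid synthesis, 26 were tested and none passed (median −0.37, or 0.06 without siAcly Ut 15). Groups did not overlap for 3 higher members (of 26, where it was 12.6% of all genes) and 7 lower members (26.9%, against 11.2%). Among the lower ones, Acsl1, a long-chain acyl-CoA synthetase, had 379.7, 385 and 362 in siC and 295, 128 and 147 in siAcly (log2 fold change −1.08, adjusted p = 0.292 from limma). Lpin2, a phosphatidate phosphatase, had a log2 fold change of −0.86 and Acsl4, which prefers arachidonate, of −0.78 (adjusted p = 0.117 and 0.129 from limma). Acacb, the mitochondrial acetyl-CoA carboxylase, had low values, 12.2, 11.1 and 6.14 in siC and 2.11, 2.79 and 5.22 in siAcly. The enzymes that use cytosolic acetyl-CoA directly were looked at after their values were seen. Fasn, fatty acid synthase, had 4082, 7977 and 5439 in siC and 7531, 2906 and 5629.6 in siAcly (log2 fold change −0.17, adjusted p = 0.854 from limma), and Acaca, the cytosolic acetyl-CoA carboxylase, had 1778, 2201 and 1957 in siC and 2009, 688 and 1557 in siAcly (log2 fold change −0.61, adjusted p = 0.272 from limma). For both, siAcly Ut 14 was inside the siC range and siAcly Ut 15 below it.

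All 26 genes of cholesterol synthesis and uptake were tested and none passed, 19 with a higher and 7 with a lower mean in siAcly cells (median 0.24, and 0.32 in treated cells). The siAcly libraries were unequal, with a median deviation of the list from the siC mean of 0.92 on the log2 scale in siAcly Ut 14, −0.70 in 15 and 0.36 in 84. The median log2 fold change ran from −0.11 without siAcly Ut 14 to 0.67 without siAcly Ut 15. Msmo1, a sterol oxidase, had 634, 488 and 481 in siC and 1362, 669 and 846 in siAcly (log2 fold change 0.79, adjusted p = 0.197 from limma), and Scap, the escort of the SREBP factors, a log2 fold change of 0.45 (adjusted p = 0.257 from limma).

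Of 34 genes of fatty acid oxidation and ketone bodies, 31 were tested and none passed. For 14 of them (45.2%, against 11.2% of all genes) the 3 siAcly libraries lay below the 3 siC libraries, and for 0 above. The median was −0.24, between −0.31 and −0.22 when single libraries were left out, and −0.11 in treated cells. Ppara, the nuclear receptor that drives this program, had 291, 257 and 267 in siC and 133, 85.9 and 110.4 in siAcly (log2 fold change −1.32, standard error 0.34, adjusted p = 0.0899 from limma). Acot1, an acyl-CoA thioesterase, had a log2 fold change of −1.14 (adjusted p = 0.238 from limma), and Ppargc1a, a transcriptional coactivator, had low values, 15.9, 14.3 and 25.7 in siC and 10.2, 2.50 and 3.48 in siAcly. With the sets as a factor 3 of the 31 fell (background 5.15%), Ppara among them, and the median was −0.20. Once siAcly Ut 15 was also left out, 0 fell and the median was −0.09 (for Ppara log2 fold change −0.83, adjusted p = 0.0528 from limma).

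Genes of lipid export, uptake and storage had a median of −0.74 (27 of 32 tested), with Abca6 as the 1 gene that fell, where 0.0488% of all genes did. Groups did not overlap for 8 lower members (29.6%, against 11.2% of all genes) and 1 higher member (3.70%, against 12.6%). Abca1, the cholesterol exporter, had 255, 212 and 242 in siC and 56.3, 67.2 and 36.6 in siAcly (log2 fold change −2.16, standard error 0.72, adjusted p = 0.141 from limma). Abca8b, a transporter related to Abca6, had 352, 330.4 and 507 in siC and 183, 144 and 53.8 in siAcly (log2 fold change −1.78, adjusted p = 0.282 from limma), and Plin5, a lipid droplet protein, had 25.6, 16.9 and 22.5 in siC and 6.46, 3.81 and 3.15 in siAcly. Fabp1, the liver fatty acid binding protein, had 569, 49.04 and 109 in siC and 11.2, 17.9 and 2.14 in siAcly, highest in siC Ut 1, the only one of these libraries in set A. The median of the list was −0.18 with the sets as a factor. In that fit 4 of the 27 genes fell (background 5.15%), among them Abca6 and Abca1 (for Abca1 log2 fold change −1.54, adjusted p = 0.0110 from limma). With siAcly Ut 15 also left out, 2 fell, Abca6 and Abca1, where 1.95% of all genes passed.

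Of the 30 p53 targets, all tested, Cdkn1a rose, where 0.138% of all genes did. Of the list, 25 had a higher mean, and in 9 (30.0%, against 12.6% of all genes) siAcly lay above siC without overlap (median 0.63, and 0.19 in treated cells). Gdf15, a stress cytokine, had 112, 93.9 and 86.2 in siC and 165, 757 and 195 in siAcly (log2 fold change 1.57, adjusted p = 0.101 from limma). Btg2, an antiproliferative factor, had 455, 440.4 and 455 in siC and 640.3, 1792 and 731 in siAcly (log2 fold change 1.07, adjusted p = 0.115 from limma), and the apoptosis genes Bbc3 and Tnfrsf10b had log2 fold changes of 0.91 and 0.90 (adjusted p = 0.115 and 0.146 from limma). The size of these differences was unequal among the libraries. The median deviation of the list from the siC mean was 0.12 in siAcly Ut 14, 1.30 in 15 and 0.61 in 84, and without siAcly Ut 15 the median log2 fold change was 0.37. With the sets as a factor it was 0.62, or 0.21 without siAcly Ut 15.

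The immediate early genes, which cells switch on soon after growth factors or stress, held 2 that rose (Junb and Maff, 24 of 25 tested, where 0.138% of all genes rose), 22 with a higher mean and 6 (25.0%, against 12.6% of all genes) with siAcly above siC without overlap. Fosl1, another AP-1 subunit, had 427, 330.4 and 245 in siC and 475, 2296 and 1320.0 in siAcly (log2 fold change 1.79, adjusted p = 0.129 from limma). Ier3 had 699.8, 795 and 737 in siC and 1083, 1807 and 1107 in siAcly (log2 fold change 0.80, adjusted p = 0.0672 from limma). Klf4, a transcription factor, and Zfp36, which speeds decay of cytokine messages, had log2 fold changes of 0.90 and 0.64 (adjusted p = 0.109 and 0.137 from limma). The median was 0.62, 0.35 without siAcly Ut 15 and 0.11 in treated cells.

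Of 32 genes that ATF4 controls in amino acid stress, 31 were tested and none passed (median 0.64, 26 with a higher mean, 9 or 29.0% with siAcly above siC without overlap, against 12.6% of all genes). Nupr1, a stress-induced chromatin protein, had 264, 229 and 225 in siC and 354, 893 and 384 in siAcly (log2 fold change 1.05, adjusted p = 0.0843 from limma). Slc1a4, a transporter of neutral amino acids, Psph, the last enzyme of serine synthesis, and Pycr1, of proline synthesis, had log2 fold changes of 0.94, 0.80 and 0.69 (adjusted p = 0.123, 0.138 and 0.137 from limma). The median was 0.33 without siAcly Ut 15 and 0.09 in treated cells. With the sets as a factor, 13 of these genes, 11 immediate early genes and 10 p53 targets rose (background 5.73%), and the same fit without siAcly Ut 15 called 0, 4 and 2 of them.

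**Figure D3:**
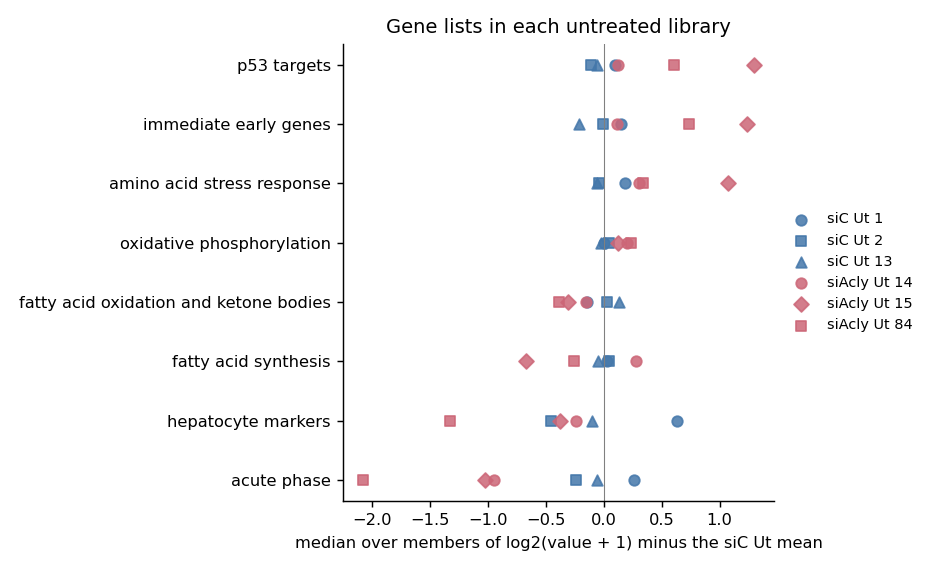
Median over the tested members of 8 gene lists in each untreated library, on the x axis as log2(value + 1) minus the mean of the 3 siC Ut libraries (blue siC, red siAcly). The p53 targets are highest in siAcly Ut 15 (1.30), while siAcly Ut 14 lies close to the siC libraries (0.12).

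Genes of proliferation did not move together. Of the 27 cyclins, cyclin-dependent kinases and inhibitors, Cdkn1a and Cdkn2b rose, where 0.138% of all genes did, and the median was 0.03. Groups did not overlap for 4 higher members (14.8%, against 12.6% of all genes) and 1 lower member (3.70%, against 11.2%). Cdkn2a, another inhibitor locus, had 199, 262 and 249 in siC and 443, 467 and 393 in siAcly (log2 fold change 0.88, adjusted p = 0.160 from limma). Ccnd3, cyclin D3, and Rbl2, the pocket protein p130, had log2 fold changes of 0.61 and −0.55 (adjusted p = 0.111 and 0.123 from limma). None of the 42 genes of DNA replication and mitosis passed, and for 0 of them did the groups separate in either direction, where 12.6% and 11.2% of all genes did. Rrm2, a subunit of ribonucleotide reductase, had 3715, 2315 and 1846 in siC and 3648, 1058 and 6448 in siAcly, and Mcm6, of the replicative helicase, had 3768, 2881 and 2574 in siC and 3613, 1466 and 4186 in siAcly. The siAcly libraries lay on both sides of siC, with a median deviation of the list of 0.04 in siAcly Ut 14, −1.10 in 15 and 0.67 in 84.

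The lowest list medians belonged to genes of the differentiated hepatocyte. These moved with the sets of libraries, though acute phase genes kept a low median in the fit with the sets. Hepatocyte markers (14 of 14 tested) had a median of −0.83, acute phase genes (23 of 25) −1.26, cytochromes P450 of families 1 to 3 (23 of 42) −1.03 and bile acid and steroid genes (13 of 25) −0.83, and no member passed. In this order, siAcly lay below siC without overlap for 28.6%, 43.5%, 26.1% and 38.5% (11.2% of all genes). It lay above siC for 7.14%, 8.70%, 0% and 0% (12.6% of all genes). Alb, albumin, had 11853 in siC Ut 1 (set A), 2963 and 5522 in siC Ut 2 and 13 and 1799.6 and 2840.2 in siAcly Ut 14 and 15 (set B), and 573 in siAcly Ut 84 (set C). Over all 24 libraries it was 11853 to 13843 in set A, 1225 to 5522 in set B and 372 to 1717 in set C, with both siRNAs in every set. Since siC Ut has no library in set C and siAcly Ut none in set A, the siRNA and the set cannot be fully told apart for such genes in the 6 libraries. After fitting the sets as a factor the median was 0.04 for hepatocyte markers, −0.71 for acute phase genes, −0.34 for cytochromes P450 and −0.04 for bile acid and steroid genes, and in treated cells it was 0.01, −0.47, −0.41 and −0.08. With the sets, 4 of the 23 acute phase genes fell (background 5.15%). Once siAcly Ut 15 was also left out, 1 of them fell, where 1.95% of all genes passed, and their median was −0.79.

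**Figure D4:**
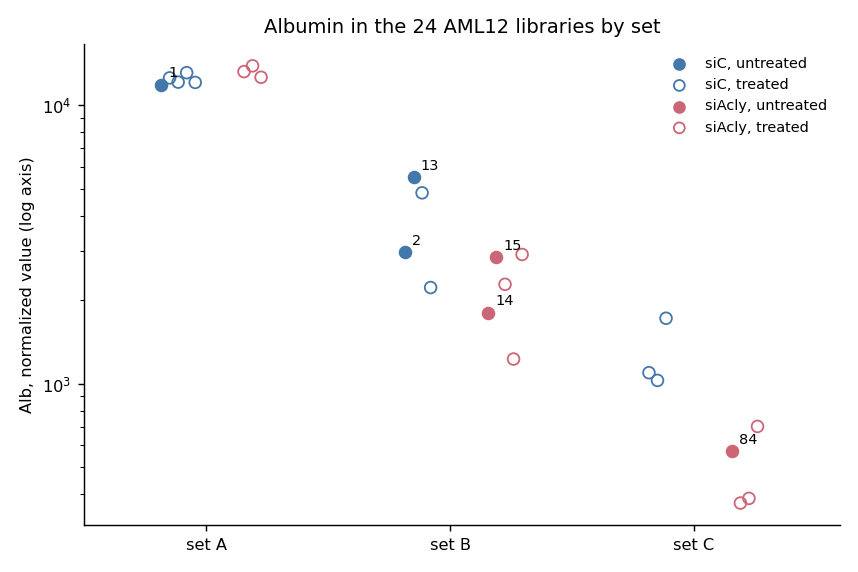
Normalized value of Alb (log axis) in the 24 AML12 libraries by set, with siC in blue, siAcly in red, untreated libraries filled and labelled with their number. Set A lies above the others (11853 to 13843), sets B (1225 to 5522) and C (372 to 1717) overlap, and the untreated libraries of the 2 siRNAs are spread unequally over the sets.

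Within these lists, genes differed. Cps1, of the urea cycle, had 381, 5.14 and 6.10 in siC and 0, 1.77 and 1.07 in siAcly, so that its difference rests on siC Ut 1. Cyp3a11, a drug-metabolizing P450, had 115, 3.38 and 10.1 in siC and 0, 0.833 and 0 in siAcly, and Saa1, serum amyloid A1, had 257, 19.5 and 29.6 in siC and 7.44, 9.30 and 0 in siAcly. Slc10a1, the bile acid importer, had 32.6, 10.03 and 7.70 in siC and 0, 2.58 and 1.17 in siAcly. Ttr, transthyretin, had 9346, 8544 and 8885 in siC and 7773, 3087 and 2241 in siAcly, close to each other in the 3 siC libraries, none of which lies in set C. The log2 fold change of Ttr was −0.45 with the sets as a factor (adjusted p = 0.397 from limma). In treated cells it was −0.02, with the siC libraries at 1861 to 10451. Orm2, an acute phase glycoprotein, had 46.5, 17.4 and 26.00 in siC and 3.17, 5.44 and 3.14 in siAcly (log2 fold change −2.58, standard error 0.82, adjusted p = 0.133 from limma), and with the sets as a factor it fell (log2 fold change −2.11, adjusted p = 0.0333 from limma), but not once siAcly Ut 15 was also left out (adjusted p = 0.0717 from limma). Rbp4, retinol-binding protein, lay in the other direction, with 2730.0, 2156 and 2515 in siC and 2941, 5981 and 2966 in siAcly (log2 fold change 0.61, adjusted p = 0.196 from limma).

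Among 18 hepatocyte transcription factors tested of 21, none passed, and for 7 (38.9%, against 11.2%) the siAcly libraries lay below the siC libraries (median −0.32, and −0.21 with the sets as a factor). Onecut1, known as HNF6, had 72.7, 76.97 and 71.2 in siC and 34.8, 1.96 and 18.8 in siAcly (log2 fold change −2.54, standard error 0.63, adjusted p = 0.0818 from limma), and without siAcly Ut 15, its lowest library, its log2 fold change was −1.49. Prox1 had 703, 596 and 771 in siC and 315, 244 and 181 in siAcly (log2 fold change −1.51, adjusted p = 0.129 from limma). Nr5a2 and Nr1i2, the pregnane X receptor, had log2 fold changes of −1.36 and −0.89 (adjusted p = 0.205 and 0.299 from limma).

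Of 37 coagulation and fibrinolysis genes, 27 were tested and none passed, 12 with a higher and 15 with a lower mean. Groups did not overlap for 6 higher members (22.2%, against 12.6% of all genes) and 5 lower members (18.5%, against 11.2%). Their median of −0.26 ran from −0.70 without siAcly Ut 14 to 0.31 without siC Ut 1. Fgb, the fibrinogen beta chain, had 664, 195 and 377 in siC and 95.7, 117 and 19.3 in siAcly, and F2, prothrombin, had 68.9, 44.1 and 34.5 in siC and 28.3, 12.96 and 5.22 in siAcly (adjusted p = 0.382 and 0.453 from limma). Fga followed Fgb, and F12 had low values, 5.36, 0.843 and 3.44 in siC and 0, 0 and 0 in siAcly. Fgb, Fga, F2 and F12 were each highest in siC Ut 1, the only untreated library in set A. F3 and Plau were looked at after their values were seen, and neither passed. F3, tissue factor, had 227, 87.7 and 96.6 in siC and 200.2, 642 and 419 in siAcly (log2 fold change 1.60, adjusted p = 0.139 from limma), which overlap, and Plau, urokinase, had 111, 83.6 and 57.4 in siC and 157, 332 and 272 in siAcly (log2 fold change 1.57, adjusted p = 0.0950 from limma). With the sets as a factor, 7 of the 27 genes rose, among them F3 and Plau, and 1 fell, where 5.73% of all genes rose and 5.15% fell. The same fit without siAcly Ut 15 called 7 that rose and 1 that fell, where it called 1.95% of all genes. In treated cells 1 rose and 0 fell in the main fit (0.309% of all genes passed). With the sets as a factor 6 rose and 1 fell there, where 3.57% of all genes rose and 3.2% fell.

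Of 65 genes of the extracellular matrix, 48 were tested and none passed (median 0.22, and −0.06 without siC Ut 1). Timp1, an inhibitor of metalloproteinases, had 936, 1133 and 1015 in siC and 1503, 2545 and 2257 in siAcly (log2 fold change 1.001, adjusted p = 0.0818 from limma), and Fbln2, fibulin 2, had 4906, 4607 and 3434 in siC and 6849.9, 10425 and 11506 in siAcly (log2 fold change 1.13, adjusted p = 0.165 from limma). Adamts9, a metalloproteinase, had 135, 270.2 and 269.7 in siC and 98.5, 110.3 and 41.9 in siAcly (log2 fold change −1.46, adjusted p = 0.197 from limma), and Vtn, vitronectin, made by hepatocytes, had 809.9, 139 and 247 in siC and 43.96, 29.7 and 7.28 in siAcly. Of 36 genes of TGF-beta signalling, 33 were tested, none passed and 5 were separate in each direction (15.2%, against 12.6% of all genes higher and 11.2% lower). Tgfbr1, a receptor, had 4578, 3148 and 3809.9 in siC and 2274, 1481 and 2370.5 in siAcly (log2 fold change −0.93, adjusted p = 0.117 from limma), and the ligand Tgfb1 and the decoy receptor Bambi had log2 fold changes of 0.77 and −1.28 (adjusted p = 0.206 and 0.219 from limma). Ltbp2 had low values, 3.05, 2.56 and 0.872 in siC and 3.19, 9.44 and 16.7 in siAcly.

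Oxidative phosphorylation held the highest share of genes with siAcly above siC among the lists with at least 20 genes tested. Of 33 genes tested of 35, none passed, but in 13 (39.4%, against 12.6%) the siAcly libraries all lay above the siC libraries, 28 had a higher mean, and the median of 0.20 ran from 0.16 to 0.21 when single libraries were left out. The differences were small. Ndufb3, of complex I, had 729.6, 646 and 630.3 in siC and 793, 1012 and 965 in siAcly (log2 fold change 0.46, adjusted p = 0.175 from limma), and Cox5b, of complex IV, had 2920.4, 3165 and 2937 in siC and 3869, 4306 and 4179.8 in siAcly (log2 fold change 0.45, adjusted p = 0.202 from limma). Cox4i1 and Ndufa2 had log2 fold changes of 0.41 and 0.41. In treated cells the median of the list was 0.03. With the sets as a factor 1 of the 33 genes rose (background 5.73%) and the median was 0.19. Once siAcly Ut 15 was also left out, 0 rose and the median was 0.22.

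Histone acetylation, for which ACLY supplies acetyl-CoA, was followed with 32 acetyltransferases and deacetylases, 31 of them tested. None passed, 21 had a lower mean and for 7 (22.6%, against 11.2% of all genes) the siAcly libraries lay below the siC libraries (median −0.12). Sirt1, a deacetylase, had 97.3, 57.1 and 63.6 in siC and 38.3, 32.2 and 35.8 in siAcly (log2 fold change −0.98, adjusted p = 0.136 from limma), and Sirt6, of the same family, had 114, 156 and 129 in siC and 185, 288 and 228 in siAcly (log2 fold change 0.80, adjusted p = 0.150 from limma). The acetyltransferases Kat6a and Kat2b had log2 fold changes of −0.76 and −0.71 (adjusted p = 0.202 and 0.193 from limma). In the fit with the sets 6 fell (background 5.15%), and 0 once siAcly Ut 15 was also left out.

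For 7 further lists none of the members passed. Lysosome and autophagy genes (34 of 34 tested) had a median of 0.14, which was −0.03 without siC Ut 1 and 0.002 with the sets as a factor and without siAcly Ut 15, with Ctsd, cathepsin D, at 11631, 14446 and 12845 in siC and 15682, 31198 and 21791 in siAcly (log2 fold change 0.77, adjusted p = 0.107 from limma) and log2 fold changes of 0.44 for Sqstm1, 0.34 for Neu1 and −0.38 for Nbr1. Glycolysis and gluconeogenesis (29 of 32) had a median of 0.06 (−0.12 without siC Ut 1). Slc2a1, the glucose transporter GLUT1, had 853, 1409 and 977 in siC and 1979, 2108 and 1456 in siAcly (log2 fold change 0.79, adjusted p = 0.101 from limma). Fbp1 had a log2 fold change of −1.65 (adjusted p = 0.573 from limma), or −0.21 with the sets as a factor. G6pc had low values, 14.2, 3.45 and 1.77 in siC and 0, 0 and 0 in siAcly. Interferon response genes (30 of 34) had a median of −0.01, with log2 fold changes of 1.06 for Oas1a, 1.03 for Oasl2, 1.03 for Usp18 and −0.77 for Tlr3, a sensor of double-stranded RNA. NRF2 targets and glutathione genes (33 of 33) had a median of 0.04, with log2 fold changes of −1.04 for Mgst1, −0.76 for Gstm1, −0.38 for Gsta3 and 0.35 for Taldo1. Chaperones of the endoplasmic reticulum (20 of 20) had a median of −0.07, from −0.37 for Sel1l to 0.26 for Creld2 among those whose groups did not overlap, and cytosolic heat shock chaperones (19 of 19) had 0.04, from −0.68 for Hsph1 to 0.31 for Hsf1. Of 10 fetal liver and tumour genes 4 were tested (median 0.17), with Afp, alpha-fetoprotein, at 23.5, 37.2 and 16.5 in siC and 50.6, 57.2 and 47.7 in siAcly (log2 fold change 1.05, adjusted p = 0.136 from limma) and Tspan8 at a log2 fold change of 0.51.

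**Figure D5:**
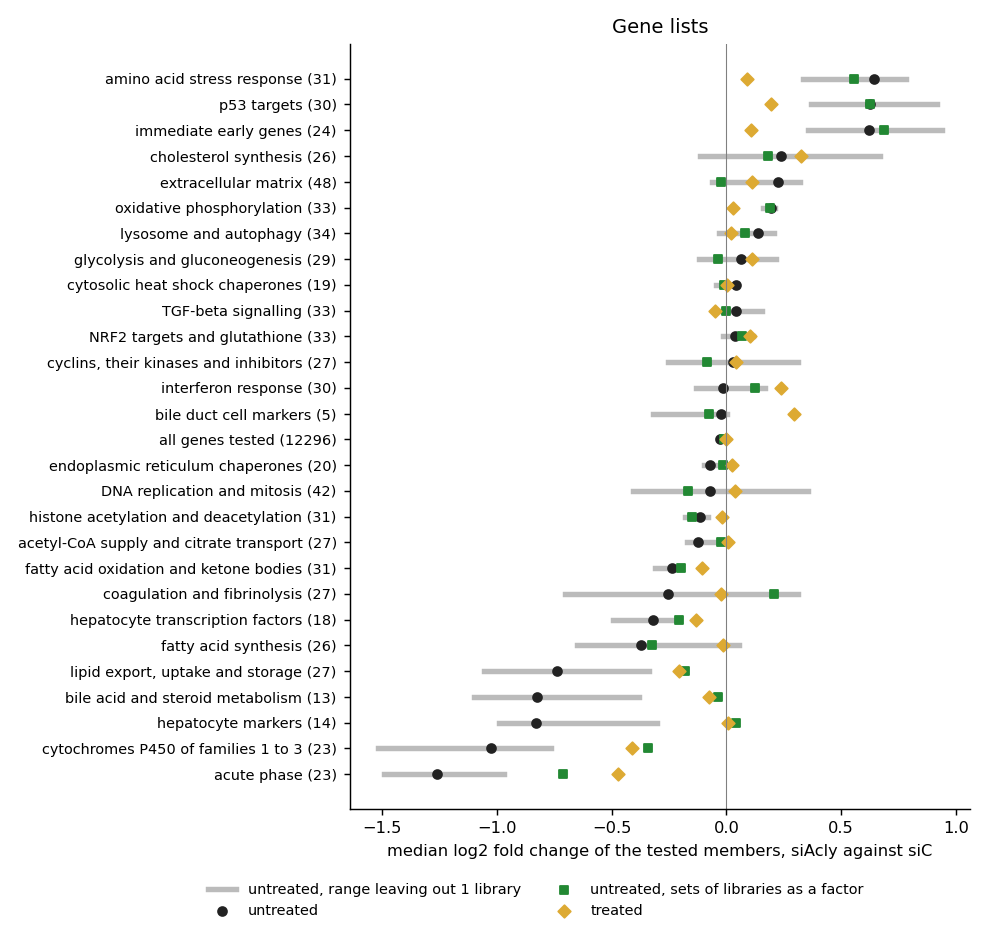
Median log2 fold change of siAcly against siC over the tested members of each gene list with at least 5 of them (number in brackets), in untreated cells (black), with the range when 1 library is left out (grey bar), with the 3 sets of libraries as a factor (green) and in treated cells (yellow). Hepatocyte markers move toward 0 with the sets as a factor (from −0.83 to 0.04), whereas p53 targets stay near their place (0.63 and 0.62, though 0.21 with the sets and without siAcly Ut 15, which is not plotted) and are nearer to 0 in treated cells (0.19).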

How the data were processed

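RNA of 24 AML12 libraries (8 groups of 3) was sequenced from stranded mRNA libraries, of which 6 libraries form the comparison. The deposited signal values are gene counts that the authors aligned to mm10 with a STAR-based application and normalized by the median of ratios with DESeq2. Whole reads could not be recovered, so count tests were not run, and depth was estimated from the value taken as 1 read. Per the labels, siRNA and treatment gave the groups. Values were taken to log2 after adding 1, which makes fold changes of low genes smaller. Genes were tested if 3 or more libraries reached a value of 10, and these 12296 of 24972 genes were fitted over all 8 groups with limma 3.58.1 in R 4.3.3 (Benjamini-Hochberg adjusted p under 0.05). The untreated comparison, the mean over the 3 agents and the difference between them were contrasts of this fit. It was also run on simulated data with independent noise, without sets, outlying libraries or doubted labels. That run cannot show how well the p-values hold in the present libraries.

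The genes named were Acly, every gene that passed (unnamed gene models only counted), and for each list the members that passed, up to 4 members whose groups did not overlap, by absolute fold change, and the 2 members with the highest mean where fewer than 2 were named. The list members named in the text are a selection of these, beside markers of cell types and of treatment and 5 genes chosen after their values were seen (Acss2, Fasn, Acaca, F3 and Plau), and a few are not reported here. The members, the 32 lists and the motifs were chosen with earlier results of these data known. Gene positions are those of GENCODE for GRCm38 and promoters those of RefSeq. Alternatives are given in the closing section, and 4 of them, with the sets of libraries or without doubted libraries, were chosen after seeing the data.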

Additional observations from a re-analysis of the deposited data

How the results depend on the processing

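The 23 genes that passed were 23 with a pseudocount of 0.5, 24 with 5, 23 with recomputed median of ratios, 31 with quantile normalization and 19 without siC Bemp 11. They were 7 with no limit on low values, 1 in a fit of only the 2 groups, 188 with the numbers 81 to 87 against the others as a covariate, 801 with array weights (estimated gene by gene), 510 at the threshold of the study, and 0 to 300 when 1 library was left out. With the sets as a factor they were 1338, or 239 without siAcly Ut 15 and 111 without siC Bemp 11 and siC Ut 13, and without those 2 libraries and no set factor 1. In treated cells the 38 genes were 200 with that covariate, 249 with array weights, 80 without siC Bemp 11, 832 with the sets, 1578 with the sets and without siAcly Ut 15, 861 with the sets and without siC Bemp 11 and siC Ut 13, and 89 at the threshold of the study. The difference between untreated and treated cells gave 0 genes in every fit and 89 at the threshold of the study. The log2 fold change of Acly was −3.65 to −3.25 when 1 library was left out, with an adjusted p from limma of 0.0659 without siC Ut 2, 0.0598 without siC Ut 13 and 0.0563 without siAcly Ut 15, but 1.18e-07 without siC Bemp 11. Of 418 values of the 22 genes other than Acly that passed, under the 19 alternatives other than the threshold of the study, 0 changed sign and 180 no longer passed. Of 608 list medians 21 moved by more than the mean standard deviation of their members over the siC Ut libraries. These lie in sets A and B, so a median could change sign and not count as moved. The median of the cyclins, their kinases and inhibitors changed sign under 9 alternatives and that of the p53 targets under 0. The median of the hepatocyte markers ran from −0.99 to 0.25. The cause of these shifts was not tested. No paired analysis was possible because the library numbers of the compared groups do not repeat, and the sets, fitted as a factor above, do not pair the untreated libraries, of which siC Ut has none in set C and siAcly Ut none in set A.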
